A study of Homo sapiens with 4 samples.

Results

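The constitutive proteasome subunit genes were followed across 4 cultures of MDA-MB231. This established line from a human breast tumour lacks hormone receptors and is basal and mesenchymal in character. Members were chosen by gene name and without a cut on any measured value, but with earlier results of these data known. They are the genes of the alpha and beta rings of the 20S core and of the ATPases and non-ATPases of the 19S cap, without the immunoproteasome subunits. Of 34 listed genes, 30 had a probe set annotated with that gene alone, out of 19775 genes with such a probe set on the array. They comprised 6 alpha-ring genes, 7 beta-ring genes, 5 ATPases and 12 non-ATPases. PSMA6, PSMC5, PSMD7 and PSMD13 lacked one in the annotation and were not analysed here.

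The study lowered ZEB2, a zinc-finger repressor that drives epithelial-mesenchymal transition. One culture was stably transduced with an shRNA against ZEB2, and its control was stably transduced with the pLVTH vector. Another culture received an siRNA pool against ZEB2 at 20 nM, and its control a pool against luciferase at the same dose, both given with Dharmafect, washed after 24 hours and harvested 48 hours later. All 4 grew in the same serum-containing medium, and each gave 1 Affymetrix U133 Plus 2 array. Biotinylated cRNA was made from 2 micrograms of total RNA for both shRNA arrays and from 100 ng for both siRNA arrays, so silencing method, culture history and labelling input cannot be told apart. The labels do not say whether the shRNA cultures were clones or pools.

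Values are log2 expression values, 1 unit is 2-fold, and a knockdown was always set against its own control. Each group is a single array, so differences within a pair carry no replicate error, and precision is limited by how few arrays there are. An array reads RNA relative to the RNA loaded, so fewer cells of a kind and less RNA per cell cannot be told apart. ZEB2 read 3.52 in the shRNA knockdown, against 6.12 in its control, and 3.51 in the siRNA knockdown, against 6.56 in its control. The line's own markers VIM, CD44, ZEB1 and AXL read between 10.12 and 14.12 on every array. The progesterone receptor gene PGR, the leukocyte gene PTPRC and the endothelial gene CDH5 never reached 4.77, the level below which genes were filtered out. The other genes listed as low markers of this line were above that level. The oestrogen receptor gene ESR1 read 6.08 to 6.54 and the receptor gene ERBB2 read 7.83 to 7.97, while the keratin gene KRT8 was bright, at 10.74 to 11.18. Other markers of other cell types were above the filter level: CD3E of T cells at 5.17 to 5.52, PECAM1 of endothelium at 5.72 to 6.98, and the stromal genes DCN at 5.48 to 5.72 and COL1A1 at 7.03 to 7.63. PECAM1 was lowest in the shRNA knockdown, at 5.72, against 6.41 in its control, and the part of these genes in the results was not tested. Over the 15082 genes kept, the 2 siRNA arrays differed with an SD of 0.235, the 2 shRNA arrays with an SD of 0.499, and the 2 controls with an SD of 0.823. The shRNA and siRNA cultures thus stood further apart than any knockdown from its own control.

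The proteasome degrades proteins tagged with ubiquitin. Its barrel-shaped 20S core has outer rings of alpha subunits, which gate the entrance, and inner rings of beta subunits, which carry the protease sites. The 19S cap holds a ring of ATPases that unfold substrates and thread them into the core, and non-ATPases that bind and remove ubiquitin and brace the particle. Subunits are needed in fixed proportions, and their genes are known to be induced together by NFE2L1, a factor that binds antioxidant response elements when proteasome capacity is short. Cancer cells of many kinds depend on the complex, and inhibitors of its beta subunits are used as drugs.

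Promoters are shown to give examples with and without a match to that response element. The first 2 are members that hold one. The other two are members past 1.5-fold between the siRNA and shRNA controls. Each line is the 250 bases before the gene start on the gene's own strand, 5′ to 3′, from RefSeq (GRCh38.p14), with matched letters in capitals. PSMA3 lies at chr14:58244593-58244842 (plus strand), PSMC4 at chr19:39970915-39971164 (plus), PSMC3 at chr11:47426440-47426689 (minus) and PSMD11 at chr17:32444260-32444509 (plus).
PSMA3: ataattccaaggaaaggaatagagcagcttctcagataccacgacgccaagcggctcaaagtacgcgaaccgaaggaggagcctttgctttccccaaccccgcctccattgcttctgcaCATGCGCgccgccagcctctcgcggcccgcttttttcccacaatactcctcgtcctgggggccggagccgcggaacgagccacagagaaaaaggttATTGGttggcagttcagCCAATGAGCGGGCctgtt
PSMC4: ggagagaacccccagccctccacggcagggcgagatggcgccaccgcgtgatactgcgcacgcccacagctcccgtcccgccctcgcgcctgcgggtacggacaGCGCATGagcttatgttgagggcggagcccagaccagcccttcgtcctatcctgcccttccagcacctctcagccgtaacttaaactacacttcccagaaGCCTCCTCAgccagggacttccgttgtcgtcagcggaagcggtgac
PSMC3: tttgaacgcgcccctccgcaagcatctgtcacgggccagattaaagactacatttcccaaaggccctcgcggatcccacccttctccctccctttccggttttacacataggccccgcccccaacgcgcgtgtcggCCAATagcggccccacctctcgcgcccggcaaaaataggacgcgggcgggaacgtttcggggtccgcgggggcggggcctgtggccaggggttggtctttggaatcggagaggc
PSMD11: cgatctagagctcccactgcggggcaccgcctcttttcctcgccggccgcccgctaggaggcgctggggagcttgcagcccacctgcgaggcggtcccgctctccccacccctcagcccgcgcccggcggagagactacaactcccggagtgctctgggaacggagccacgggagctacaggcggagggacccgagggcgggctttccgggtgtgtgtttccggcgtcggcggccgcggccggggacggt

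The capitals mark 4 motifs, searched on both strands. They are the antioxidant response element core (TGACNNNGC, or G as the fourth base), the CCAAT box (CCAAT), the ETS core (CCGGAAG) and the core bound by nuclear respiratory factor (GCGCATG). In PSMA3 the response element and a CCAAT box share letters, which was the case in 1 of the 35 windows of members. Over their 4 arrays, by the brightest probe set, measured members with a response element match spanned between 0.0626 for PSMA5 and 0.519 for PSMD12. PSMC4, PSMA3 and PSMD3 also hold one and spanned 0.123, 0.471 and 0.473. Measured members whose windows held none spanned between 0.125 for PSMB2 and 1.19 for PSMD11, with PSMC3 at 0.886 and PSMD1 at 0.936. Other probe sets read differently. The second of PSMA5 ran from 5.49 to 7.03 and that of PSMD12 from 9.63 to 10.80. The second of PSMD1 ran from 9.96 to 10.48, with both siRNA arrays higher, where its brightest had them lower. PSMC4 holds a nuclear respiratory factor core and a response element on the opposite strand. PSMC3 holds a CCAAT box alone, and PSMD11 holds none of these letters in this window. The table held 29 of the 34 listed genes. The response element core was found in 40% of the windows of members, against 23.9% of all 35116 windows. The CCAAT box was found in 42.9% against 32%, the ETS core in 20% against 8.52%, and the nuclear respiratory factor core in 14.3% against 3.77%. A match is a description of letters, and no binding was measured. In the shRNA pair the 12 measured members with a response element match had a median difference of 0.0269, and the 13 without had 0.0377. In the siRNA pair the medians were 0.00852 and 0.110. Between the siRNA and shRNA controls they were -0.0910 and -0.133, with the lowest members at -0.519 and -1.19.

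All 30 members were expressed well above the filter level on all 4 arrays, with values between 9.59 and 12.88, so the filter on dim genes removed none. Levels of different probe sets are not comparable as amounts of RNA. By the brightest probe set, the span over the 4 arrays was 0.315 for the median member. It ran from 0.0626 for PSMA5, an alpha-ring subunit, to 1.19 for PSMD11, a scaffold subunit of the cap's lid. The median member thus spanned more than 1.2-fold but less than 1.5-fold. Both siRNA arrays lay below both shRNA arrays for 46.7% of members, against 27.5% of all genes kept, and above for 23.3%, against 39.2%.

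**Figure D1:**
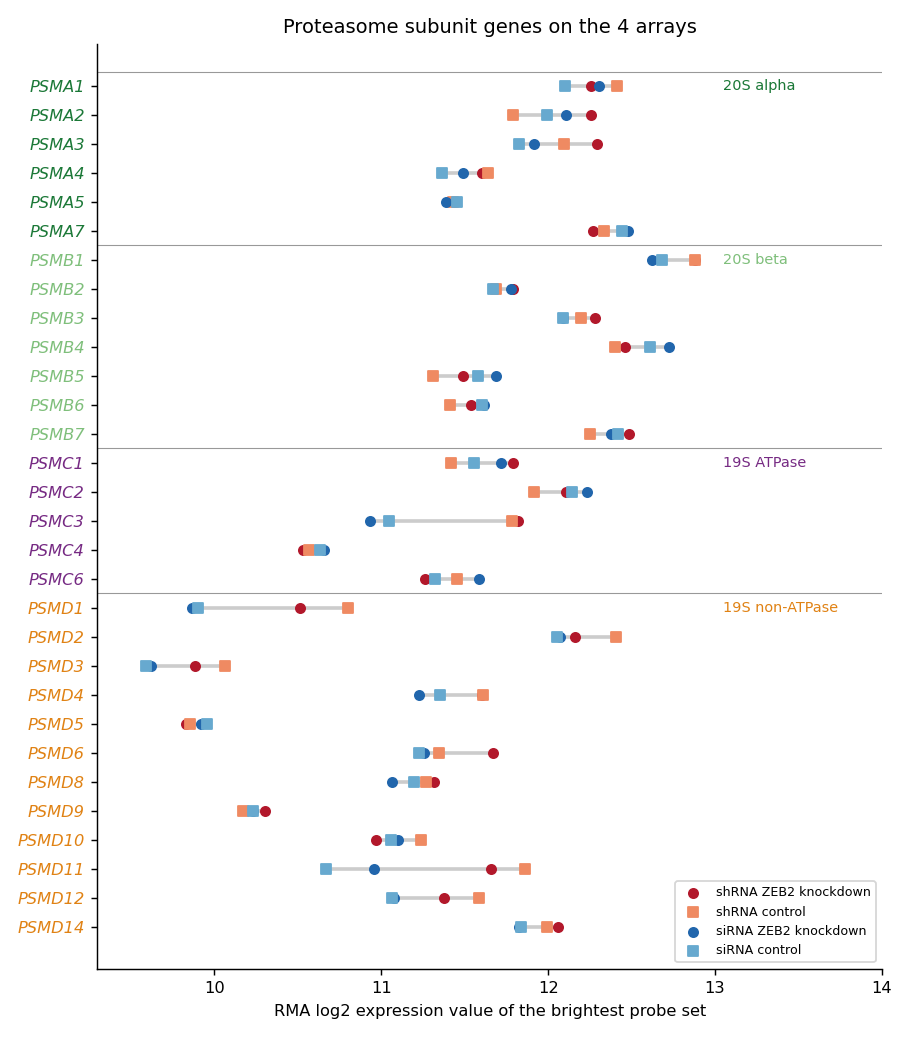
Log2 expression values of the brightest probe set of each of 30 proteasome subunit genes (rows, coloured by class) on the 4 arrays (symbols), with a grey line from the lowest to the highest array. PSMC3, PSMD1 and PSMD11 have the widest spans, with both siRNA arrays below both shRNA arrays, while PSMA5 spans 0.0626.

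Stable knockdown of ZEB2 was set against the vector control to see what differs under lasting loss of ZEB2. Of the 30 proteasome genes, 0 differed by 1.5-fold in either direction. Among all genes kept this share was 14.7%, and among the 2882 genes at least as bright as the dimmest member it was 14.4%. The median member differed by 0.0227, against -0.0242 over all genes kept, and 17 members lay above 0 and 13 below. At 1.2-fold, 3 members were higher and 2 lower, 16.7% of members against 44.1% of all genes kept.

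The highest member was PSMA2, an alpha-ring subunit, which read 12.26 in the shRNA knockdown, against 11.79 in its control, a difference of 0.47. Its second probe set gave 9.22 and 8.76, a difference of 0.46. PSMC1, a cap ATPase, read 11.79 in the shRNA knockdown, against 11.42 in its control. Both of these genes were also read higher on the siRNA knockdown array than on its control, by 0.11 for PSMA2 and by 0.16 for PSMC1. PSMD6, a lid subunit, read 11.67 in the shRNA knockdown, against 11.35 in its control, and was the third member past 1.2-fold upward.

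The lowest member was PSMD1, a large scaffold of the base of the cap, at 10.51 in the shRNA knockdown, against 10.80 in its control, a difference of -0.29. PSMD10, also known as gankyrin, a chaperone of base assembly and a protein studied for its role in liver cancer, read 10.97 in the shRNA knockdown, against 11.24 in its control. PSMD1 and PSMD10 were the 2 members lower by 1.2-fold. The largest differences, of either sign, therefore stayed within 1.39-fold.

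By class, the 7 beta-ring genes all lay above 0, between 0.00403 for PSMB1 and 0.23 for PSMB7, with a median of 0.105. PSMB5, PSMB6 and PSMB7 carry the chymotrypsin-like, caspase-like and trypsin-like sites. PSMB5 read 11.49 in the shRNA knockdown, against 11.31 in its control. PSMB6 read 11.54 against 11.41 in the control, and PSMB7 read 12.49 against 12.25 in the control. All 3 catalytic genes were thus slightly higher, by 0.12 to 0.23. The 12 non-ATPases had a median of -0.103, with 8 below 0, and the 6 alpha-ring genes had a median of -0.0161, with 3 on either side. The ATPases had a median of 0.0377. The SD over the 30 members in this pair was 0.193, and 1 array a group allows no test of these offsets between classes.

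Transient knockdown was set against the luciferase control to see what differs within days of lowering ZEB2. Again 0 of the 30 members differed by 1.5-fold, where 2.2% of all genes kept did and 0.659% of those as bright did. The members' median was 0.0275, against -0.0183 over all genes kept, with 21 members above 0 and 9 below. At 1.2-fold 2 members were higher and 0 lower, 6.67% of members against 22.3% of all genes kept. The SD over members was 0.104, against 0.193 in the stable pair. Over all genes kept it was also smaller, 0.235 against 0.499 in the stable pair.

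The 2 members past 1.2-fold were PSMD11 and PSMC6, an ATPase of the cap. PSMD11 read 10.96 in the siRNA knockdown, against 10.67 in its control, a difference of 0.29. PSMC6 read 11.59 in the siRNA knockdown, against 11.32 in its control, a difference of 0.27. Both were lower in the stable knockdown, by -0.20 and -0.19. At the other end stood PSMD8, a lid subunit, at -0.13, and PSMD4, a ubiquitin receptor of the cap, at -0.12. PSMD8 read 11.06 in the siRNA knockdown, against 11.20 in its control, and PSMD4 read 11.23 in the knockdown, against 11.35 in its control.

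The catalytic genes were read at nearly the same level in this pair. PSMB5 read 11.69 in the siRNA knockdown, against 11.58 in its control. PSMB6 read 11.61 on both arrays, and PSMB7 read 12.37 in the knockdown, against 12.42 in its control. The alpha-ring genes had a median of 0.104, with 5 of 6 above 0, and the beta-ring genes one of 0.00642. The ATPases had a median of 0.0876 and the non-ATPases one of 0.00832. In neither pair did any class contain a gene past 1.5-fold by its brightest probe set.

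**Figure D2:**
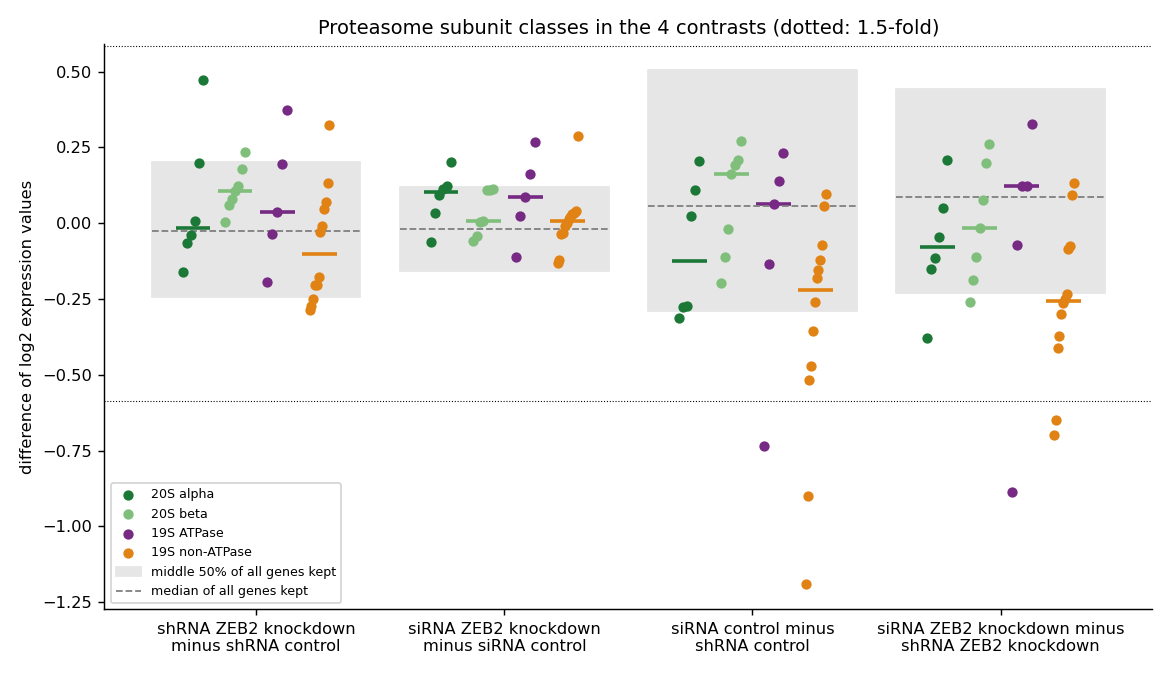
Differences of log2 values for 30 proteasome subunit genes (points, by class, with a bar at the class median) in 4 contrasts. Grey bands and dashed lines give the middle 50% and the median of the 15082 genes kept, and dotted lines mark 1.5-fold. Every member lies within 1.5-fold in both knockdown pairs, and 3 cap genes lie below it in each contrast of siRNA with shRNA cultures.

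A shared effect of ZEB2 knockdown was fitted in limma to the 4 arrays together, blocking on the silencing method. The 2 methods then stand in for replicates and leave 1 residual degree of freedom. limma called 0 of the 30 members at an adjusted p under 0.05, and 0 of 15082 genes, which is 0%. At an unadjusted p under 0.05 it gave 0 members and 384 genes, 2.55% of those tested. Fitted differences of members lay between -0.16 and 0.29, with standard errors between 0.112 and 0.187. PSMA2 had the smallest unadjusted p among members in limma, 0.135, at a difference of 0.29 ± 0.15 (SE) and an adjusted p of 0.971.

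For 4 members both knockdown arrays lay above both control arrays, namely PSMA2, PSMB2, PSMC1 and PSMD9, and for 0 members below. The shares over all genes kept were 6.6% above and 8.85% below. PSMB2, a beta-ring subunit, was the most even of the 4, at 11.79 and 11.78 in the shRNA and siRNA knockdowns, against 11.69 and 11.67 in the controls. In the siRNA pair its brightest probe set differed by 0.110 and the next by 0.288, while the dimmer ones gave -0.097 and -0.372. The one at -0.372 stayed under the filter level on every array. When its probe sets were averaged, PSMB2 differed by -0.018 in that pair. PSMD9, a chaperone of base assembly, cleared its controls by far less, reading 10.306 and 10.232 in the shRNA and siRNA knockdowns, against 10.172 and 10.230 in the controls. Signs were the same in both pairs for 14 of 30 members, 11 higher and 3 lower. The pairs share no array, and over the 30 members their differences had a Pearson r of -0.0269, given as a description of genes that share 4 arrays.

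The siRNA control was then set against the shRNA control. Both keep ZEB2, so this contrast shows how far the proteasome genes differ between the 2 kinds of culture and labelling. Members past 1.5-fold numbered 3, or 10% of 30, all lower in the siRNA control, while 34% of all genes kept and 35.1% of those as bright were past 1.5-fold, and 12.1% of all were lower by that much. Their median was -0.115, against 0.0558 over all genes kept. At 1.2-fold 9 of 30 members were lower, where 26.6% of all genes kept were, and 1 was higher, where 36.2% were. Either way, this was 33.3% of members against 62.8% of all genes kept.

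The 3 were all genes of the 19S cap. PSMD11 read 10.67 in the siRNA control, against 11.86 in the shRNA control, 2.28-fold lower. PSMD1 read 9.90 in the siRNA control, against 10.80 in the shRNA control, 1.87-fold lower. PSMC3, an ATPase, read 11.05 in the siRNA control, against 11.78 in the shRNA control, 1.67-fold lower. The 2 knockdown arrays, which share no array with the controls, gave the same 3 genes past 1.5-fold, 10% of members against 29.5% of all genes kept (10.7% lower). There PSMC3 read 10.94 in the siRNA knockdown, against 11.82 in the shRNA knockdown. PSMD11 differed by -0.70 and PSMD1 by -0.65 on those arrays.

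Most non-ATPases of the cap lay on the lower side. Of the 12, 10 were below 0 in the siRNA control, with a median of -0.219, and 10 were below 0 in the knockdown arrays, with a median of -0.256. Over all genes kept, 6907 of 15082 were below 0 between the controls and 6376 between the knockdown arrays. PSMD1 is counted by its brightest probe set, while its second differed by 0.37 and 0.51 in these contrasts. The lid subunit genes PSMD12 and PSMD3 differed by -0.52 and -0.47 between the controls, and PSMD2, a base scaffold, by -0.36. The 2 non-ATPases above 0 between the controls were PSMD5 (0.098) and PSMD9 (0.058), both chaperones of base assembly, while the third such chaperone, PSMD10, differed by -0.18. PSMD14, the deubiquitinase that strips ubiquitin chains from substrates, differed by -0.15. Alpha-ring genes lay partly on the lower side too, with a median of -0.124 and 3 of 6 below 0 between the controls. Those 3 were lower by 1.2-fold, 50% of the class, as were 41.7% of non-ATPases and 26.6% of all genes kept. On the knockdown arrays the alpha-ring median was -0.0797, with 1 gene lower by 1.2-fold.

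Beta-ring genes lay on both sides, with a median of 0.164 and 4 of 7 above 0 between the controls, and a median of -0.0149 and 3 of 7 above 0 on the knockdown arrays. PSMB5 was the highest member, at 11.58 in the siRNA control, against 11.31 in the shRNA control, and PSMC2, an ATPase, followed at 12.14 in the siRNA control, against 11.91 in the shRNA control. On the knockdown arrays PSMB5 differed by 0.20 and PSMC2 by 0.12. The other 2 probe sets of PSMC2 differed by -0.41 each between the controls, so its direction rests on the brightest. In all, both siRNA arrays lay below both shRNA arrays for 14 members, 46.7%, against 27.5% of all genes kept. They lay above for 7 members, 23.3%, against 39.2% of all genes kept. The 14 held 9 of the 12 non-ATPases, 2 alpha-ring genes, 2 beta-ring genes and 1 ATPase.

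**Figure D3:**
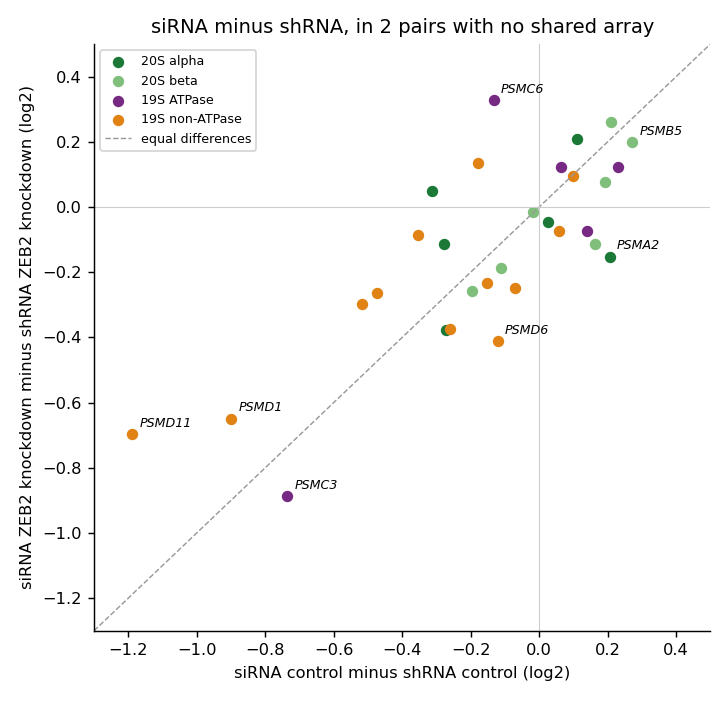
Each point is 1 of 30 proteasome subunit genes. Horizontal, siRNA control minus shRNA control; vertical, siRNA minus shRNA ZEB2 knockdown, both as differences of log2 values, with a dashed line where they are equal. PSMD11, PSMD1 and PSMC3 lie far below 0 on both axes, and the other members lie between -0.52 and 0.33.

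Across members these 2 contrasts had a Pearson r of 0.772, a Spearman rho of 0.676 and the same sign in 22 of 30, against a Pearson r of 0.748 over all genes kept. Within each method the arrays share the labelling input, and the correlation is given as a description. The limma fit, read for siRNA arrays minus shRNA arrays with knockdown as the block, called 0 of the 30 members at an adjusted p under 0.05, while 6.9% of the genes tested were called. At an unadjusted p under 0.05 it gave 3 members, PSMC3, PSMD1 and PSMD11, 10% of members against 33.3% of all genes tested. PSMC3 had a fitted difference of -0.81 ± 0.14 (SE) with an adjusted p of 0.0565 in limma, PSMD11 had -0.94 ± 0.19 with 0.0645, and PSMD1 had -0.77 ± 0.17 with 0.0709. With quantile normalization on top of the deposited values, limma called all 3, 10% of members, and 16.5% of all genes tested.

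RNA integrity probes moved with this contrast. The array carries probe sets at the 3′ and 5′ ends of control transcripts. For ACTB the 3′ end read above the 5′ end by 0.52 and 0.50 on the siRNA knockdown and control arrays, against -0.033 and -0.038 on the shRNA knockdown and control arrays. For GAPDH the gap was 0.19 and 0.12 on the siRNA arrays, against -0.071 and -0.074 on the shRNA arrays. Signal was thus tilted to the 3′ end on both arrays made from the smaller input, and its part in the proteasome differences was not tested.

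**Figure D4:**
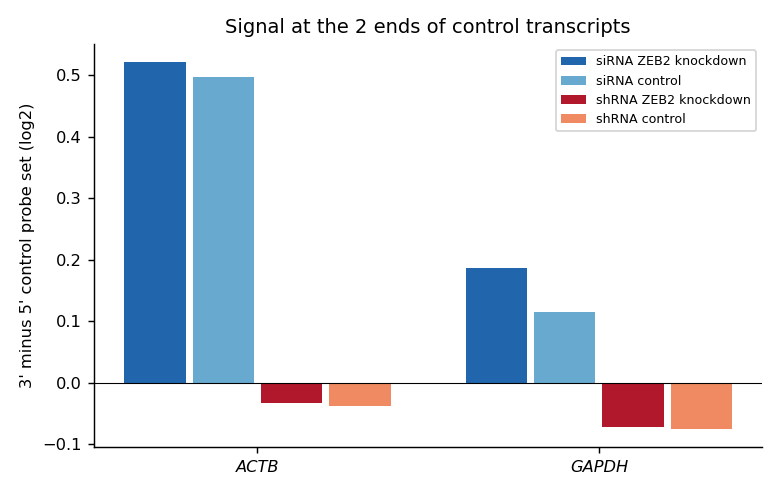
Log2 value of the 3′ probe set minus that of the 5′ probe set for 2 control transcripts, 1 bar per array. Both siRNA arrays stand above both shRNA arrays for each transcript, most for ACTB, at 0.52 and 0.50 on the siRNA arrays against -0.033 and -0.038 on the shRNA arrays.

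Second probe sets of the same genes were compared next, since they read other stretches of each transcript. The 30 members had 57 probe sets, 12 members having 1, and 22 of the 27 others reached the filter level on some array. In the shRNA pair 18 of these 22 had the sign of the brightest, in the siRNA pair 14 and between the controls 14. PSMD1 was read in opposite directions between the controls. Its brightest probe set gave 9.90 in the siRNA control, against 10.80 in the shRNA control, and its second gave 10.46 in the siRNA control, against 10.09 in the shRNA control. The lower level of PSMD1 on siRNA arrays therefore rests on 1 of 2 probe sets of nearly equal brightness.

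PSMD11 differed by -0.54 between the controls on its second probe set, the same sign as on the brightest but under 1.5-fold. PSMC3 has a single probe set, and all 3 genes past 1.5-fold were read there by a probe set whose name ends in _s_at, which can match several transcripts. Between the controls 6 of the 22 other probe sets that reached the filter level passed 1.5-fold. Those of PSMA5 and PSMD12 differed by -1.31 and -1.18, and dim ones of PSMD4 and PSMB7 by 0.72 and 0.59. Dimmer probe sets also read PSMA2 and PSMB4 higher in the siRNA control, by 0.84 and 0.78, where the brightest gave 0.21 and 0.21. Another probe set of PSMB4, nearly as bright as the brightest, gave 0.19. Why probe sets of a gene differ was not tested.

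In the shRNA pair 2 second probe sets passed 1.5-fold. For PSMD12 the second probe set read 9.71 in the shRNA knockdown, against 10.80 in its control, while both siRNA arrays read 9.76 and 9.63. The dim second probe set of PSMA5 read 5.49 in the shRNA knockdown, against 7.03 in its control, with 5.68 and 5.72 on the siRNA knockdown and control arrays. On both probe sets the shRNA control stood above the 3 other arrays. When a gene was given the mean of all its probe sets, PSMA5 differed by -0.77 and PSMD12 by -0.65 in this pair, so 2 members passed 1.5-fold. In the siRNA pair 0 of the 22 did.

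**Figure D5:**
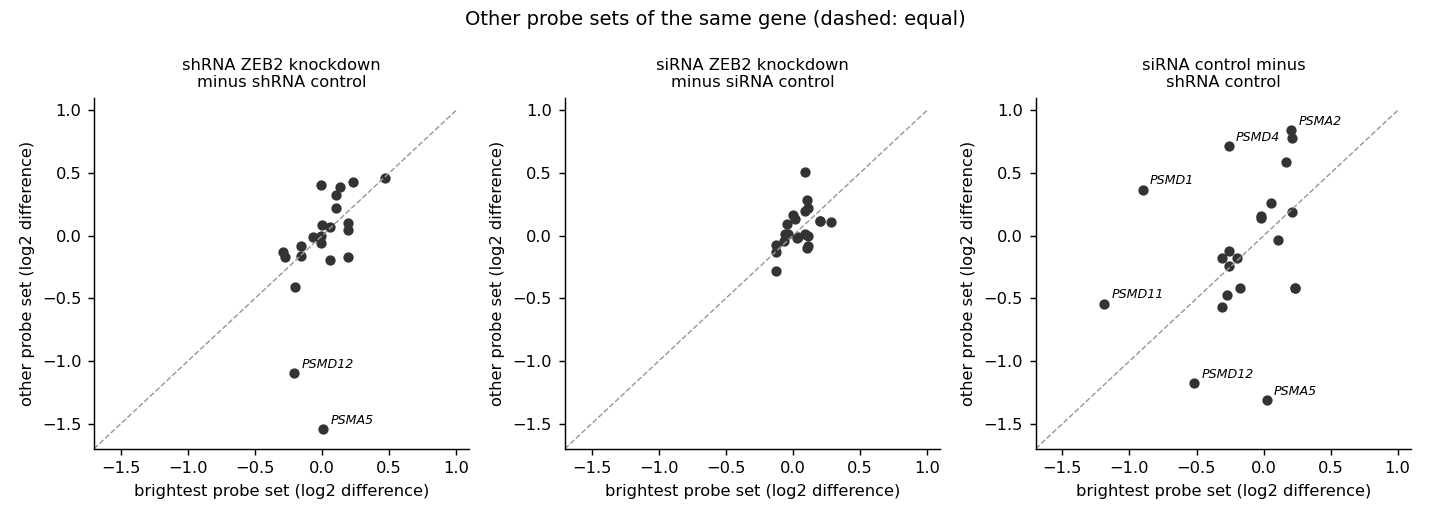
Each point is 1 of 22 other probe sets of proteasome subunit genes that reached the filter level. Horizontal, the difference of log2 values on the gene's brightest probe set; vertical, the difference on the other probe set, with a dashed line where they are equal. PSMD12 and PSMA5 fall below the line in the stable pair, and PSMD1 changes sign between the controls.

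Other genes of the pathway were read from 7 lists of 47 genes, of which 38 were measured and passed the filter. In the shRNA pair 1 of the 38 was past 1.5-fold, and in the siRNA pair 0 were, against 14.7% and 2.2% of all genes kept. That 1 was UBQLN1, a shuttle that brings ubiquitinated proteins to the cap, at 10.91 in the shRNA knockdown, against 11.53 in its control. It differed by 0.083 in the siRNA pair. limma called 0 of the 38 for the shared knockdown effect.

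The inducible catalytic subunits PSMB8, PSMB9 and PSMB10, which replace the constitutive beta subunits in the immunoproteasome, were each lower in both pairs. PSMB9 read 8.77 in the shRNA knockdown, against 9.35 in its control, a difference of -0.58 just short of 1.5-fold, and differed by -0.054 in the siRNA pair. PSMB8 differed by -0.53 and -0.20. Of the constitutive subunits that they replace, PSMB5 differed by 0.18 and 0.11 in the shRNA and siRNA pairs, PSMB6 by 0.12 and 0.0064, and PSMB7 by 0.23 and -0.041. NFE2L1, the inducer of the subunit genes, and its relative NFE2L3 are named here after their values were seen. NFE2L1 read 10.33 in the shRNA knockdown, against 10.61 in its control, and differed by -0.12 between the siRNA arrays. NFE2L3 read 9.74 in the shRNA knockdown, against 9.26 in its control, and 10.04 in the siRNA knockdown, against 9.62 in its control.

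Between the controls 8 of the 38 pathway genes were past 1.5-fold, 3 higher and 5 lower, 21.1% against 34% of all genes kept. UBA1, the main ubiquitin-activating enzyme, was the lowest, at 9.41 in the siRNA control, against 10.97 in the shRNA control. PSME3, the nuclear activator of the core, read 9.52 in the siRNA control, against 10.95 in the shRNA control. These 2 were the only pathway genes that limma called for siRNA minus shRNA arrays, 5.26% of the 38 against 6.9% of all genes tested, with adjusted p of 0.0450 for UBA1 at -1.92 ± 0.24 (SE) and 0.0457 for PSME3 at -1.29 ± 0.17. The core activator PSME4 was the highest, at 10.34 in the siRNA control, against 9.16 in the shRNA control, but it differed by -0.565 when all its probe sets were averaged. The core assembly chaperone PSMG3 differed by 1.11 and the cap assembly factor PAAF1 by -0.73, and PAAF1 turned to 0.00662 without probe sets ending in _x_at or _s_at. In the remaining lists the cap component SEM1 (-0.34) and the nuclear import factor AKIRIN2 (0.096, but -0.432 when its probe sets were averaged) were the ends of one, the shuttle RAD23B (-0.585, but -0.051 without probe sets ending in _x_at or _s_at) and the VCP cofactor UFD1 (0.31) of another. The regulator MAFF (0.55) and the glycanase NGLY1 (-0.23, but 0.740 without probe sets ending in _x_at or _s_at) were the ends of the list around NFE2L1, and the ubiquitin gene UBB (-0.19) and UBA1 those of the ubiquitin list.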

How the data were processed

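The arrays were Affymetrix U133 Plus 2, 1 per culture, with 54675 probe sets. The deposited values are log2 expression values from RMA (affy), per the submitters' processing notes; versions are not given in the sources used here. The method corrects background, gives the arrays a common distribution and sums up the probes of each set. Scanner files were not used here.

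Of the probe sets, 41097 had 1 gene symbol in the platform annotation, 1801 several and 11777 none. A gene was read by the probe set with the highest mean. Genes whose highest value reached the 40th percentile of all values, 4.77, were kept. Differences were taken of log2 values, with 1.5-fold as the threshold. limma 3.58.1 in R 4.3.3 (lmFit, eBayes with an intensity trend, 2-sided, Benjamini-Hochberg over 15082 genes) had ZEB2 knockdown and method as factors. Its p-values measure the gap between methods, not between cultures. The fit was first tested on simulated data, with noise set lower than the SDs between these arrays.

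Genes named in full were the extremes of each contrast, the catalytic subunits, members past 1.5-fold, and pathway genes past 1.5-fold in a pair or at the ends of their list between the controls. The members and lists were chosen with earlier results of these data known. Alternatives are given in the closing section. Figures were drawn with matplotlib 3.10.9. Protein sequences were not used here, and 1 control transcript is not reported here.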

Additional observations from a re-analysis of the deposited data

Results flagged for a closer look

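2 pathway genes named above differed in opposite directions in the knockdown pairs, by more than 1.2-fold in each. The activator PSME4 was higher in the stable knockdown, by 0.438, and lower in the transient one, at -0.274. The enzyme UBA1 gave 0.370 for the stable knockdown and -0.354 for the transient one. When the probe sets of UBA1 were averaged, these became 0.0544 and -0.243, both under 1.2-fold. Each value rests on 1 array a group, and the difference between the pairs was not tested. Of the 30 proteasome subunit genes, 0 met this condition. The share of all genes kept that met it was not counted, so neither count can be set against it.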

How the results depend on the processing

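In the shRNA pair the count of members past 1.5-fold was 0, and it became 5 at 1.2-fold, 2 with the mean of all probe sets and 3 with the siRNA control in place of the shRNA control, where the median was 0.138. In the siRNA pair the count of 0 became 2 at 1.2-fold and 3 with the shRNA control in place of the siRNA control, where the median was -0.0982. Between the controls the count of 3 became 10 at 1.2-fold and 1 at 2-fold. Without probe sets ending in _x_at or _s_at, 22 members were left and 2 (PSMA2 and PSMD4, on dimmer probe sets) were past 1.5-fold, both higher in the siRNA control; by construction this setting drops the probe sets that read the 3 lower genes. With all probe sets averaged, 4 members were lower by 1.5-fold between the controls (PSMA5, PSMC3, PSMD11 and PSMD12). For siRNA minus shRNA arrays limma called 1 member (PSMC3) when probe sets were averaged, 2 each with the filter at the 60th percentile, median centring or cyclic loess, and 3 each with quantile normalization or without the knockdown block. Of all genes tested, limma called 16.7% when probe sets were averaged, 17.9% with that filter, 13.96% with median centring and 14.04% with cyclic loess. It called 16.5% with quantile normalization and 19.5% without the knockdown block. In each of these settings a smaller share of the 30 members was called than of all genes tested. Over all genes the same fit called 1040, from 248 with no filter to 2943 without the knockdown block. The cause was not tested. Of the pathway genes, PSME4 turned to -0.565 when its probe sets were averaged and PAAF1 to 0.00662 without probe sets ending in _x_at or _s_at, both between the controls. There AKIRIN2 also turned, to -0.432 when averaged, and NGLY1, to 0.740 without those probe sets. Other scalings (median centring, quantile, cyclic loess) moved 0 of 90 member differences by 0.1 or more each, and the mean of all probe sets moved 25 of 90. The labels carry no replicate numbers, so the only pairing was the limma block on silencing method, already in the values reported. Leaving out an array would leave limma no residual degree of freedom.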
